A study of Mus musculus and Rattus norvegicus with 30 samples.

Results

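Potassium channel genes were defined by symbol, as every gene of the deposited annotation whose symbol starts with Kcn, leaving out the imprinted noncoding RNA Kcnq1ot1. The mouse table held 97 such members among 54315 features and the rat table held 93, with 92 distinct symbols, among 39281. The series profiled dorsal root ganglia (DRG), which house the cell bodies of sensory neurons together with satellite glia, Schwann cells, vessels and macrophages, by bulk RNA-seq after nerve injury. Mouse libraries came from pooled L3 and L4 ganglia of 1 adult animal each, 28 days after spared nerve injury (SNI), which severs the common peroneal and sural nerves but spares the tibial nerve, or after sham surgery. There were 6 sham and 4 SNI libraries of BALB/c and 5 sham and 5 SNI libraries of B10.D2, of both sexes. From the labels, 1 more BALB/c SNI animal and 1 more B10.D2 sham animal are not analysed here. Rat libraries came from the L5 DRG of male Wistar rats 21 days after L5 spinal nerve transection (SNT) or sham surgery, with 4 libraries a group and 3 animals pooled in each library. SNI leaves part of the axons of L3 and L4 ganglia intact, whereas SNT severs the spinal nerve of the ganglion sampled.

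Potassium channels set the resting potential of a neuron and end or space its action potentials. Voltage-gated alpha subunits of the Kv1, Kv2, Kv3, Kv4, Kv7 and EAG families assemble as tetramers, with silent Kv subunits (KvS: Kcnf, Kcng, Kcns and Kcnv) that form no channel alone and modify Kv2, and with auxiliary Kv beta, KChIP and KCNE subunits. Calcium- or sodium-activated channels (BK, SK and the Slack group, Slo) couple firing to ion entry, inward rectifiers (Kir) include the G protein-gated and ATP-sensitive channels, and tandem pore-domain channels (K2P) carry leak current. In sensory neurons, lower potassium current is a well-known correlate of raised excitability after axotomy.

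Library totals were 29989963 to 41881331 counts in mouse and 11954612 to 17887909 in rat, so that 3 counts, taken as the detection floor, equalled 0.0716 to 0.1 and 0.168 to 0.251 CPM (counts scaled by library total and TMM factor). Of the members, 87 in mouse and 56 in rat had enough counts to be tested. Every rat library listed 28 members at 0, including Kcnk1, Kcnip1, Kcnip4, Kcng4, Kcnma1, Kcnj10 and Kcnk16, and genes that every DRG uses, such as the neuronal tubulin Tubb3 and the myelin protein gene Mbp, were listed at 0 there too, so these zeros were not read as absence. Kcnb2 and Kcnd2 had no rat row and were not analysed here. On the first principal component, which held 68.5% of the variance, 2 rat libraries, sham 4 (-9.24) and SNT 1 (1.12), fell in the gap separating the remaining sham and SNT libraries, so the change of each rat member described in detail is given with all 8 libraries and without these 2. Neuronal markers were present in both species. In mouse all 9 neuronal markers had counts and summed to 8574 to 9673 CPM in BALB/c sham libraries, and in rat 4 of the 8 with a row had counts, with the nociceptor sodium channel genes Scn9a and Scn10a among them.

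Promoter windows of 4 members are shown as examples, for the reasons that follow. Kcnk16 was the only member called higher in both mouse strains, and Kcna2 and Kcns1 fell in both strains and in rat. Kcnip3 was 1 of few with an activator protein 1 (AP-1) motif. Each window spans 250 bases before to 50 bases after a RefSeq transcript start on GRCm38.p6 and is written 5′ to 3′ on the gene's strand, with capitals marking CAGCTG (an E-box) or TGANTCA (AP-1).
Kcnk16, chr14:20269220-20269519, minus strand: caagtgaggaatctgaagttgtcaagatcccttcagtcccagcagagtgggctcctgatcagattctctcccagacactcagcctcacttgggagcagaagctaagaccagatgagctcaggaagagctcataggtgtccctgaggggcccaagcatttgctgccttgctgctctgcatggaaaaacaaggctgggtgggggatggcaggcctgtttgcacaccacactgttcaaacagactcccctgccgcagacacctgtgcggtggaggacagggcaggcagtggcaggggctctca
Kcna2, chr3:107101317-107101616, plus strand: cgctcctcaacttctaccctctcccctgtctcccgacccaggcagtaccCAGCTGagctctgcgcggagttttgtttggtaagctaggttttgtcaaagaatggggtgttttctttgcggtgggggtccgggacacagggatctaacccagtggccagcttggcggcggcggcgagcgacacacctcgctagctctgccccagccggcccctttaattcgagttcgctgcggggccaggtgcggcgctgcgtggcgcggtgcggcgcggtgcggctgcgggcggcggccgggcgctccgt
Kcns1, chr2:164171064-164171363, minus strand: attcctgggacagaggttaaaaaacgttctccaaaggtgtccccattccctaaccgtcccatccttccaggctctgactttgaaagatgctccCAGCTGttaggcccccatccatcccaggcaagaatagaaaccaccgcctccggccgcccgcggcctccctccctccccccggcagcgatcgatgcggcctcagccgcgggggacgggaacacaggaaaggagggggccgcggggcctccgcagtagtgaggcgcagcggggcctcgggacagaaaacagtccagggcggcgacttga
Kcnip3, chr2:127522045-127522344, minus strand: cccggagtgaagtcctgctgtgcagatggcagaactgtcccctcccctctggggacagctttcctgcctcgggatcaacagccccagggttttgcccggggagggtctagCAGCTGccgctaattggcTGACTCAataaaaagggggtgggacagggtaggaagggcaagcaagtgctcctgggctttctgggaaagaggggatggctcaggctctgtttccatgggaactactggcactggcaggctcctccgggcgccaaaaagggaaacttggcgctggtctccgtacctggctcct
The Kcnk16 window held none of the 5 motifs searched, the Kcna2 and Kcns1 windows held CAGCTG, and the Kcnip3 window, 1 of 3 for that gene, held CAGCTG and TGACTCA. Over both strands, 4 of 96 windows of 71 matched members held TGANTCA, against 7.81% of all 32851 windows of this length. None of the 96 held the cAMP response element TGACGTCA (1.79% of all windows) and 1 held TCAGCACC, the left part of the site of the repressor REST (1.65%). TATAAA was present in 5 of 96 (13.6%), CAGCTG in 24 of 96 (16.3%), and the median GC content was 58.2% for members and 52.7% for all windows. The matches in the windows shown do not overlap each other. These matches describe letters and not bound sites.

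In the uninjured mouse ganglion the auxiliary subunit gene Kcnab2 (Kv beta 2, which binds Kv1 channels) had the highest level per length, 135 ± 7.53 CPM per kilobase of exon (SD over 11 sham libraries of both strains). The Kv1 genes Kcna2 (58.9 ± 6.05), whose channels sit beside the nodes of myelinated axons, and Kcna1 (56.7 ± 4.9) followed at levels that did not differ beyond their spread. Next, again within each other's spread, came the KChIP genes Kcnip3 (33.0 ± 2.96), Kcnip4 (30.7 ± 4.77) and Kcnip2 (30.1 ± 4.98), whose calcium-binding products escort Kv4 channels, the leak channel gene Kcnk1 (30.2 ± 3.84), the delayed rectifier gene Kcnb2 (28.9 ± 2.43) and Kcna6 (28.9 ± 2.63). The sodium-activated channel gene Kcnt1 (26.1 ± 2.72) and the EAG family gene Kcnh7 (24.7 ± 2.26) stood just below. In all, 25 members reached 10 CPM per kilobase and 64 reached 1. Leading members of other families were Kcnd1 (Kv4, 20.7), Kcns3 (KvS, 16.1), Kcnj12 (Kir, 12.7), Kcnn1 (SK, 11.9), Kcnmb1 (BK, 6.4), Kcnc4 (Kv3, 5.25) and Kcne4 (KCNE, 1.82), all as mean CPM per kilobase. Summed without regard to length, the 97 members made up 5441 ± 216 CPM (SD, n = 6) in BALB/c sham libraries, of which Kv1 took 23.1%, Kv beta 16.0%, Kv2 12.2% and EAG 10.5%.

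**Figure D1:**
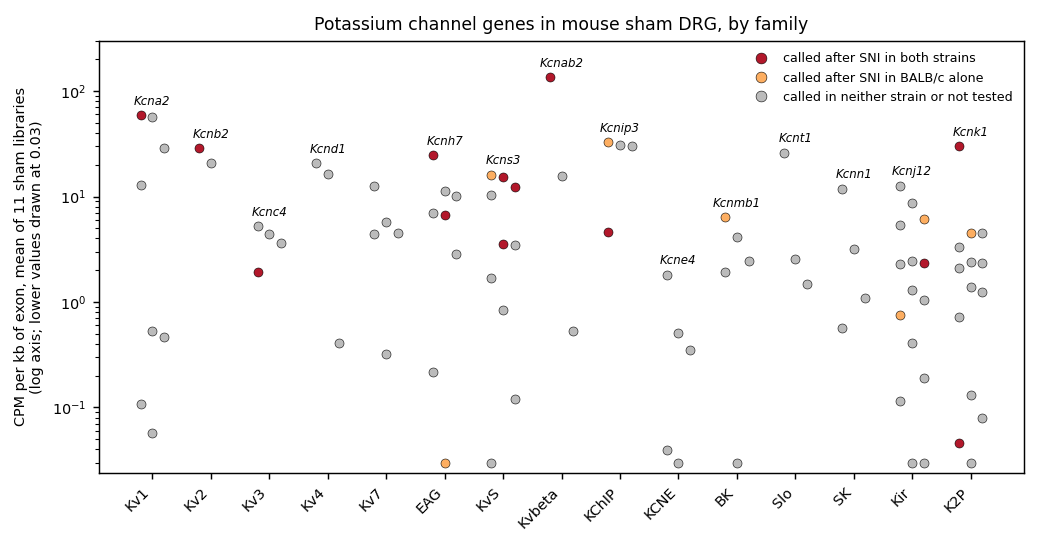
Level of each mouse member in sham DRG by channel family, as mean CPM per kilobase of exon over 11 sham libraries on a log axis, coloured by the injury calls. Leading members are named: Kcnab2 leads at 135, and the members called after SNI in both strains range from Kcnab2 down to Kcnk16 at 0.0461.

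After SNI, 18 potassium channel genes in BALB/c and 12 in B10.D2 were called lower, and most members did not pass the test. In BALB/c, 20 of 87 tested members passed the test (edgeR quasi-likelihood F test, Benjamini-Hochberg adjusted p under 0.05 over all 24685 features, termed called), 2 higher and 18 lower, which is 23.0% of members against 9.69% of all features. All features were called higher in 4.82% and lower in 4.87% of cases. In B10.D2, 13 members were called, 1 higher and 12 lower, or 14.9% against 4.58% of all features (2.10% higher and 2.48% lower). The median log2 fold change of the tested members was -0.12 in BALB/c and -0.08 in B10.D2, against 0.00 and 0.01 over all features. All 13 members called in B10.D2 were also called in BALB/c. Summed CPM over all members fell to 84.4% of the sham mean in BALB/c and, in B10.D2, to 88.4%, and neither strain's groups overlapped.

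Of the Kv1 complex, Kcna2 and Kcnab2 were called lower in both strains. Kcna2 (ENSMUSG00000040724, chr3:107101146-107115005) measured 718 CPM at the lowest, 754 at the median and 770 at the highest in BALB/c sham libraries and 503, 591, 592 and 679 CPM in the SNI libraries. The groups did not overlap, and the log2 fold change was -0.34 (SE 0.0688, edgeR adjusted p = 0.0024). In B10.D2 it measured 560, 575, 681, 691 and 718 CPM after sham and 513, 522, 532, 549 and 575 CPM after SNI, and these groups met at their edges. Its change there was -0.24 (SE 0.0676, edgeR adjusted p = 0.0405), a call that was lost without any 1 of 9 libraries, namely B10.D2 sham 58, 60 or 67, B10.D2 SNI 69, 76, 78, 89 or 90, or BALB/c SNI 70 (edgeR adjusted p 0.0509 to 0.149), and with the strain fitted alone (0.0678). Kcnab2, its beta subunit gene, ranged from 704 to 783 CPM with a median of 730 in BALB/c sham and read 554, 583, 597 and 669 CPM after SNI, with no overlap. Kcnab2 fell by 0.30 on the log2 scale (SE 0.0526, edgeR adjusted p = 0.000726) in BALB/c. B10.D2 values of Kcnab2 were 703, 754, 766, 802 and 830 CPM after sham and 619, 623, 641, 701 and 708 CPM after SNI, which just overlap, and Kcnab2 fell by 0.21 there (SE 0.0516, edgeR adjusted p = 0.0196). This call was lost without B10.D2 sham 60 or B10.D2 SNI 69 or 78, at edgeR adjusted p of 0.0555, 0.0546 and 0.054. The other abundant Kv1 genes did not pass in either strain: Kcna1 stood at -0.11 and -0.22, Kcna4 at -0.12 and -0.02, and Kcna6 at 0.22 and 0.02 in BALB/c and B10.D2 respectively. For Kcna6 in BALB/c the edgeR adjusted p was 0.068, and the paper, using DESeq2, lists it as significantly higher there.

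Kv2 channels and their silent partners gave 4 of the 12 members that fell in both strains. Kcnb2, a delayed rectifier, read 384 to 436 CPM (median 413) in BALB/c sham libraries and 295, 302, 310 and 327 CPM after SNI. It read 453, 462, 474, 483 and 491 CPM in B10.D2 sham libraries and 358, 373, 378, 416 and 429 CPM after SNI. Every SNI library lay below every sham library of its strain, at -0.41 (SE 0.0487, edgeR adjusted p = 9.75e-06) and -0.26 (SE 0.0476, edgeR adjusted p = 0.00194). Kcns1, a silent subunit gene, ran from 37.0 to 46.4 CPM (median 40.4) after sham and read 23.2, 24.0, 28.5 and 29.2 CPM after SNI in BALB/c. In B10.D2 it read 31.9, 35.8, 40.3, 48.9 and 53.5 CPM after sham and 24.4, 25.6, 27.8, 28.4 and 30.5 CPM after SNI. Neither strain's groups overlapped, and the changes were -0.65 (SE 0.106, edgeR adjusted p = 0.000316) and -0.59 (SE 0.103, edgeR adjusted p = 0.00135). Kcng4 showed the largest fall of the 12, at -0.73 (SE 0.126, edgeR adjusted p = 0.000615) and -0.79 (SE 0.121, edgeR adjusted p = 0.000372). Its BALB/c values went from 10.6 to 15 CPM in sham to 6.61 to 8.01 CPM, and its B10.D2 values from 13.3 to 16.0 CPM to 5.82 to 9.79 CPM. Kcnv1 fell by 0.32 in BALB/c (SE 0.0695, edgeR adjusted p = 0.00437) and, at the edge of the threshold, by 0.24 in B10.D2 (SE 0.0687, edgeR adjusted p = 0.0489). That B10.D2 call was lost without any 1 of 14 of the 20 libraries, each B10.D2 library except sham 58 and SNI 78 among them, with edgeR adjusted p between 0.0519 and 0.154, and also without the sex term (0.0504) or with the strain fitted alone (0.0614). Kcns3 passed in BALB/c alone, at -0.28 (SE 0.08, edgeR adjusted p = 0.0322) against -0.17 in B10.D2, and lost its call without BALB/c sham 57 or 71 or BALB/c SNI 49, 64 or 65 (edgeR adjusted p 0.0597 to 0.0959).

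Among the EAG family, Kcnh7 carried the lowest adjusted p in BALB/c of all members that fell. Its BALB/c values were 319 to 432 CPM (median 390) after sham and 230 to 243 CPM over the 4 SNI libraries. B10.D2 libraries gave 336, 344, 360, 386 and 407 CPM after sham and 265 ± 27 CPM (SD, n = 5) after SNI, with the highest at 302 CPM, again without overlap. The changes were -0.70 (SE 0.0748, edgeR adjusted p = 2.1e-06) and -0.46 (SE 0.0723, edgeR adjusted p = 0.000508). Kcnh5 fell by 0.51 and 0.49 on the log2 scale (edgeR adjusted p = 0.000111 and 0.000281), with no overlap in either strain. Kcnh4 was called higher in BALB/c at 2.72 (SE 0.558, edgeR adjusted p = 0.00282), on 1 to 4 counts in each sham library and 10 to 19 in each SNI library, and stood at 1.99 in B10.D2 without passing (edgeR adjusted p = 0.0553). Kcnh1, Kcnh2 and Kcnh6 passed in neither strain. The summed EAG level dropped furthest of the families in both strains, to 69.9% of sham in BALB/c and 78% in B10.D2.

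Of the fast Kv3 channel genes, Kcnc1 stood at -0.49 in BALB/c and -0.56 in B10.D2, Kcnc2 at 0.05 and 0.17, and Kcnc4 at -0.05 and 0.03, and none of these passed the test. The Kv4 genes Kcnd1 and Kcnd3 stood at -0.15 and -0.08 in BALB/c and passed in neither strain. Of the KChIP genes, Kcnip1 fell in both, from 25.7 to 30 CPM to 17.5, 18.1, 18.7 and 21.7 CPM in BALB/c (-0.54, SE 0.0751, edgeR adjusted p = 5.85e-05) and from 26.6, 27.3, 30.1, 30.5 and 36.2 CPM to 18.8, 20.1, 20.8, 21.6 and 24.1 CPM in B10.D2 (-0.49, SE 0.0729, edgeR adjusted p = 0.000269). Kcnip3 fell in BALB/c (-0.32, SE 0.0527, edgeR adjusted p = 0.000325), where its groups did not overlap, and stood at -0.17 in B10.D2 (edgeR adjusted p = 0.071). Kcnip2 and Kcnip4 stood between -0.19 and -0.05 and passed in neither strain.

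The Kv7 genes, some of which carry the M-current, did not pass the test in either strain, with Kcnq3 at -0.08 and 0.11 and Kcnq5 at -0.21 and -0.23 in BALB/c and B10.D2. The SK genes, the Slo genes and the BK pore gene Kcnma1 (-0.08 and -0.07) did not pass either. Kcnmb1, a BK beta subunit gene best known from smooth muscle, was called in BALB/c alone (-0.32, SE 0.0856, edgeR adjusted p = 0.0187), a call lost without BALB/c SNI 70 (edgeR adjusted p = 0.0832).

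Inward rectifiers and leak channels held the only member called higher in both strains. Kcnk16 (ENSMUSG00000023387, chr14:20261376-20269199), a K2P gene best known from the pancreas, had 0, 2, 4, 5, 6 and 6 counts in the BALB/c sham libraries and 27, 38, 41 and 56 in the SNI libraries. In B10.D2 it had 2, 4, 4, 5 and 6 counts after sham and 26, 39, 53, 56 and 60 after SNI. On the CPM scale these are 0 to 0.179 against 0.766 to 1.40 in BALB/c and 0.0543 to 0.151 against 0.664 to 1.67 in B10.D2, with no overlap, and the log2 fold changes were 3.40 (SE 0.368, edgeR adjusted p = 2.85e-06) and 3.45 (SE 0.372, edgeR adjusted p = 1.11e-05). Even after injury it remained among the low members. Kcnk1, the K2P gene with the highest level per length, moved the other way, from 59.4 to 78.1 CPM (median 67) to 39.2, 43.2, 43.2 and 58.9 CPM in BALB/c and from 55.5, 56.7, 71.5, 73.5 and 75.8 CPM to 43.3, 44.8, 45.2, 46.0 and 49.5 CPM in B10.D2. Its changes were -0.57 (SE 0.111, edgeR adjusted p = 0.00192) and -0.53 (SE 0.108, edgeR adjusted p = 0.00577). Kcnk18 (TRESK), a nociceptor background channel gene, passed in BALB/c alone at -0.28 (SE 0.0809, edgeR adjusted p = 0.0317) and lost its call without BALB/c sham 57 or 71 or BALB/c SNI 49, 64 or 65 (edgeR adjusted p 0.0611 to 0.102) and with the strain fitted alone (0.0585). Kcnj11, the pore subunit gene of ATP-sensitive channels, fell in both strains, at -0.58 (SE 0.0938, edgeR adjusted p = 0.000298) and -0.50 (SE 0.0929, edgeR adjusted p = 0.00243), without overlap. The G protein-gated channel genes Kcnj3 (-0.52, SE 0.0768, edgeR adjusted p = 0.000126) and Kcnj9 (-0.73, SE 0.13, edgeR adjusted p = 0.000785) fell in BALB/c, and stood at -0.21 and -0.25 in B10.D2 without passing. Kcnj10, the glial Kir gene, stood at 0.15 and 0.01 and passed in neither.

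**Figure D2:**
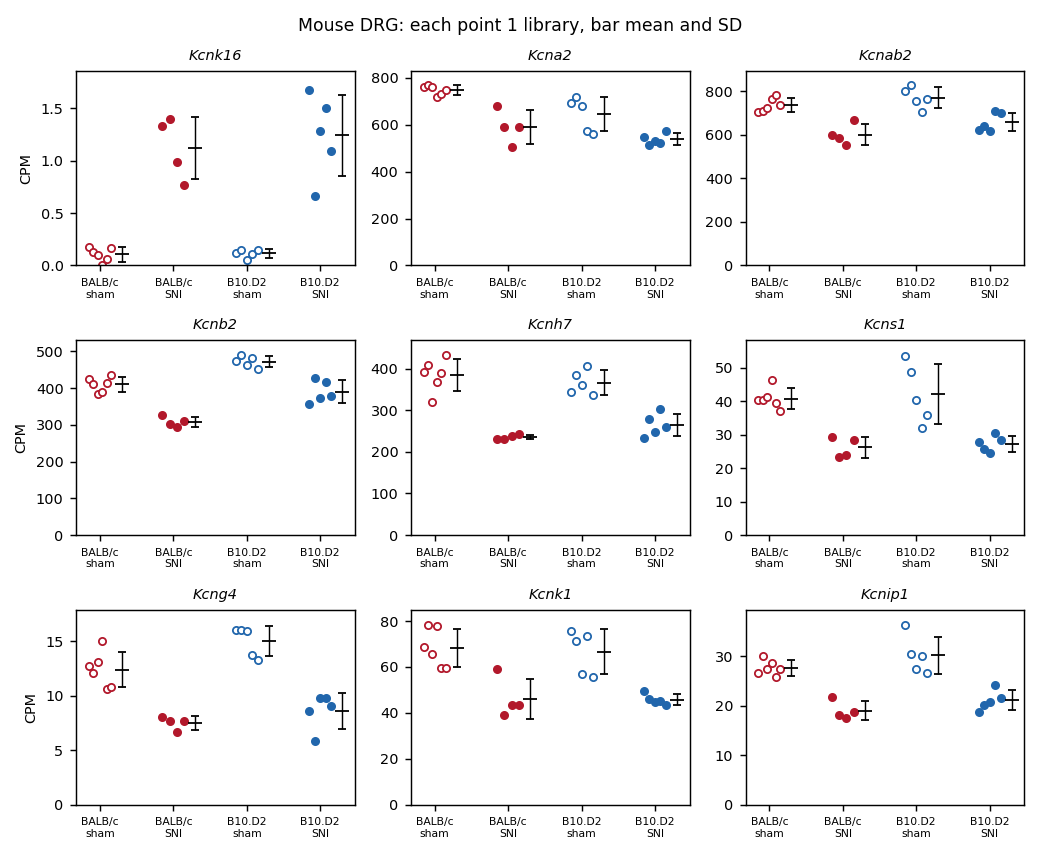
CPM of 9 members in every mouse library, with sham as open and SNI as filled points, BALB/c in red and B10.D2 in blue, and the mean and SD as a bar beside each group. Kcnk16 is the one member shown that rose, to 0.766 CPM or more in BALB/c SNI libraries, and the other 8 fell, with Kcna2 and Kcnab2 meeting at their edges in B10.D2.

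In these bulk samples, fewer cells of a type and less RNA per cell cannot be told apart. Of the 9 neuronal markers, 3 were called lower and none higher in each strain, Snap25 and Nefh among them, with medians of -0.18 (BALB/c) and -0.11 (B10.D2). Their summed level was 7832 to 8801 CPM in BALB/c SNI libraries and 7737 to 9188 CPM in B10.D2 SNI libraries against 8691 to 9683 CPM in B10.D2 sham. Of 10 genes of injured neurons, 10 were called higher in BALB/c, with 9 in B10.D2, and their sum rose from 216 to 276 CPM to 688 to 836 CPM and from 224 to 277 CPM to 325 to 584 CPM. Macrophage markers summed to 59.6 to 148 CPM in BALB/c sham and 110 to 169 CPM in BALB/c SNI libraries, with 3 of 7 called higher, and to 116 to 138 and 123 to 195 CPM in B10.D2 with none called. Their part in the changes of the channel genes was not tested. Skeletal muscle markers reached 1199 CPM in 1 BALB/c sham library and 473 CPM in 1 BALB/c SNI library, against 18.1 CPM at most in B10.D2 sham. The part of muscle content in the changes of the channel genes was not tested.

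The 2 strains gave fold changes of the same direction for most members. Of the 12 members that fell in both, 11 fell more in BALB/c and 1, Kcng4, in B10.D2, with falls of 0.30 to 0.73 in BALB/c and 0.21 to 0.79 in B10.D2. Over the 87 tested members the Pearson correlation of the strains' log2 fold changes was 0.91, or 0.72 without Kcnk16 and Kcnh4, as a description over genes that share libraries. The interaction of strain with injury called no member with edgeR and none with DESeq2, against 0.0243% of all features by edgeR. At an unadjusted p under 0.05 there were 10 members with edgeR and 11 with DESeq2. The share of all features at that p is not given here, so these counts are not read as particular to the members. The smallest p belonged to Kcnn4, the intermediate-conductance calcium-activated channel gene, at a B10.D2 minus BALB/c difference of -0.42 (SE 0.12, edgeR adjusted p = 0.856), followed by Kcnj3 at 0.31 (SE 0.106, edgeR adjusted p = 1). A call in BALB/c alone is therefore not shown to differ between strains.

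**Figure D3:**
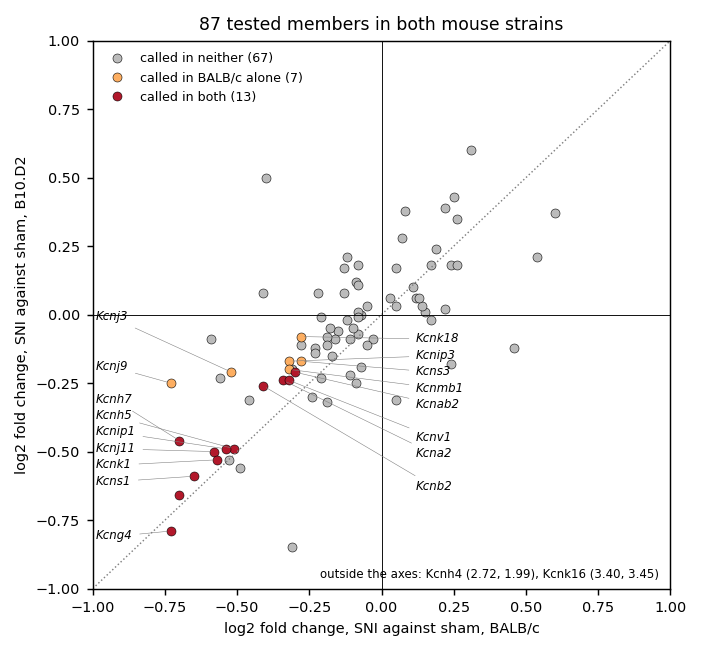
Log2 fold change after SNI in BALB/c (x axis) and in B10.D2 (y axis) for the 87 tested members, with the line of equal change dotted. Most members called in both strains lie in the lower left, above the line where the fall was larger in BALB/c; Kcng4 lies below it at -0.73 and -0.79, and Kcnk16 and Kcnh4 lie outside the axes.

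Uninjured animals of both strains also differed. In B10.D2 sham against BALB/c sham libraries, 24 members were called, 12 higher and 12 lower, which is 27.6% of those tested against 21.6% of all features (11.5% higher and 10% lower), so the share of members was close to the background. The silent subunit gene Kcnf1 read 21.2 to 32.9 CPM (median 26.1) in BALB/c and 4.92, 5.03, 5.45, 5.54 and 6.73 CPM in B10.D2, a difference of -2.22 (SE 0.111, edgeR adjusted p = 1.63e-12). Kcnj16, a Kir gene whose product pairs with that of Kcnj10, read 1.13 to 1.92 CPM (median 1.57) in BALB/c and 5.73, 6.79, 7.72, 7.81 and 8.12 CPM in B10.D2 (2.21, SE 0.162, edgeR adjusted p = 1.08e-09). Kcnj10 itself went the other way, from 57.4 to 76.9 CPM (median 62.9) in BALB/c to 19.6, 22.2, 30.1, 31.8 and 32.2 CPM in B10.D2 (-1.22, SE 0.117, edgeR adjusted p = 6.83e-08). The acid-sensitive leak channel gene Kcnk9 read 0.536 to 0.865 CPM (median 0.776) in BALB/c and 2.27, 2.46, 2.50, 2.83 and 3.02 CPM in B10.D2 (1.77, SE 0.153, edgeR adjusted p = 1.32e-08). None of these 4 overlapped between the strains, and none was called after SNI in either strain. Kcnk18 was also lower in B10.D2, at 9.97 to 13.1 CPM against 16.4 to 22.0 CPM (-0.78, SE 0.0773, edgeR adjusted p = 1.05e-07). Kcnj8, a pericyte gene, was lower by 0.96 on the log2 scale (edgeR adjusted p = 2.05e-06). Of the 6 genes of the pericyte and smooth muscle list, 5 were called lower in B10.D2, Kcnj8 itself among them. Rgs5 of that list read 198 ± 28.8 CPM (SD, n = 6) in BALB/c sham and 215 ± 24.7 CPM (n = 5) in B10.D2 sham. Summed levels of that list without Kcnj8 were 292 to 423 CPM in BALB/c sham and 273 to 330 CPM in B10.D2 sham libraries, and its part in the difference was not tested. Of the 6 genes of the satellite glia list, 1 was called, which was Kcnj10 itself. The sum of that list without Kcnj10 was 2485 to 2749 CPM in BALB/c sham and 2312 to 2657 CPM in B10.D2 sham. No member was called between females and males by edgeR or by DESeq2 (0.243% of all features were called by edgeR). Unadjusted p was under 0.05 for 14 members with edgeR and 15 with DESeq2, with Kcnq1 at 0.38 (edgeR adjusted p = 0.157) the first of them. The share of all features at that p is not given here either, so these counts are not read as particular to the members.

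Rat ganglia after SNT showed lower levels of most tested members. Of 56, 31 were called, 1 higher and 30 lower, or 55.4% against 27.4% of all 13690 features tested (12.3% higher and 15.1% lower). The median log2 fold change was -0.77 against 0.00 over all features, 45 of the 56 lay below 0, and 13 of the calls were falls of 2 or more on the log2 scale. Without sham library 4 and SNT library 1, 39 members were called, 4 higher and 35 lower, all 31 among them, against 43.9% of all features. Those 2 libraries were chosen because they lay between the groups, so larger changes and more calls follow from the choice and are no independent support. The count depended on single libraries. It was 35 and 36 without sham 4 and SNT 1, and 25 without sham 1. It was 19, 18, 17, 19 and 18 without sham 2, sham 3, SNT 2, SNT 3 and SNT 4. Shares of all features in these fits are not given here, so these counts are not read as particular to the members. Among the 31 called with all libraries, 25 had groups that did not overlap and 6 had groups that did. The share of all called features without overlap is not given here, so this count is not read as particular to the members. Sham library 4 lay nearest to the SNT values and SNT library 1 nearest to the sham values for most members named here.

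Of 7 tested silent Kv subunit genes, 5 were called lower, and Kcns1 showed the largest fall of any member. Kcns1 read 113, 205, 122 and 69.2 CPM in sham libraries 1 to 4 and 47.2, 0.545, 1.89 and 2.69 CPM in SNT libraries 1 to 4. The groups did not overlap, and the change was -3.29 (SE 1.07, edgeR adjusted p = 0.0448) with all libraries and -6.44 (edgeR adjusted p = 9.77e-06) without the 2 middle libraries. Its call was lost without any 1 of sham 1, 2 or 3 or SNT 2, 3 or 4, at an edgeR adjusted p of up to 0.1. Kcns3 read 205, 254, 246 and 144 CPM after sham and 79.0, 13.1, 17.4 and 24.2 CPM after SNT, a change of -2.67 (SE 0.518, edgeR adjusted p = 0.0117), or -3.67 (edgeR adjusted p = 7.15e-06) without the middle libraries. Kcng3 fell by 2.56 (SE 0.46, edgeR adjusted p = 0.0108), Kcnv1 by 2.28 (SE 0.672, edgeR adjusted p = 0.0328) and Kcnf1 by 2.11 (SE 0.635, edgeR adjusted p = 0.0352), and without the middle libraries the 3 stood at -3.37, -3.74 and -3.35. The calls of Kcnv1 and Kcnf1 were likewise lost without any 1 of those 6 libraries, at edgeR adjusted p of up to 0.0843 and 0.0939, and DESeq2 gave no adjusted p for either. Kcng1 (-2.03) and Kcnv2 (-0.24) did not pass. Summed, the KvS genes went to 15.3% of the sham level, the lowest of any family, without overlap. That share depended on SNT 1, being 6.58% without SNT 1 and 5.88% without both middle libraries.

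In rat 4 of 7 tested Kv1 genes and both tested Kv beta genes were called lower. Kcna2 read 906, 1210, 1084 and 630 CPM after sham and 497, 341, 357 and 328 CPM after SNT (-1.33, SE 0.215, edgeR adjusted p = 0.0106, and -1.62 without the middle libraries). Kcna4, the A-type member of Kv1 found in small nociceptors, read 89.8, 127, 108 and 71 CPM after sham and 40.5, 9.75, 8.95 and 13.2 CPM after SNT (-2.45, SE 0.46, edgeR adjusted p = 0.0114, and -3.34 without the middle libraries). Kcna1 and Kcna3 fell by 0.54 and 0.72 on the log2 scale (-0.63 and -0.66 without the middle libraries), calls lost without any 1 of sham 2 or 3 or SNT 2, 3 or 4 for Kcna1, and without sham 2 or SNT 2 or 4 for Kcna3, at edgeR adjusted p of up to 0.108 and 0.0592. Kcna6 did not pass, at 86.3, 160, 117 and 118 CPM against 150, 124, 97.7 and 168 CPM (0.16, edgeR adjusted p = 0.581, and 0.12 without the middle libraries). Kcnab1 read 308, 344, 297 and 208 CPM after sham and 148, 45.1, 39.1 and 58.1 CPM after SNT (-2.0, SE 0.393, edgeR adjusted p = 0.0119, and -2.72 without the middle libraries), whereas it stood at -0.07 and 0.00 in the 2 mouse strains. Kcnab2 fell by 1.27 (SE 0.349, edgeR adjusted p = 0.0258, and -1.82 without the middle libraries) with overlapping groups, a call lost without any 1 of the same 6 libraries (edgeR adjusted p of up to 0.0723).

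Kcnh7 read 168, 223, 208 and 104 CPM after sham and 57.3, 8.71, 12.5 and 16.5 CPM after SNT, a change of -2.89 (SE 0.55, edgeR adjusted p = 0.0114), or -3.98 without the middle libraries. Kcnk9 read 2.40, 4.21, 3.85 and 2.21 CPM after sham and 0.885, 0, 0.333 and 0.262 CPM after SNT (-3.11, SE 0.591, edgeR adjusted p = 0.0114, and -4.10 without the middle libraries), close to the floor in the SNT libraries. Kcnk18 went from 9.61, 18.8, 15.7 and 8.79 CPM to 6.58, 0.817, 1.39 and 1.31 CPM (-2.40, SE 0.584, edgeR adjusted p = 0.0177, and -3.63 without the middle libraries), a call lost without sham 3 or SNT 4 at an edgeR adjusted p of up to 0.051. Kcnip3 went from 105, 188, 119 and 69.4 CPM to 66.5, 18.6, 15 and 21 CPM (-2.0, SE 0.48, edgeR adjusted p = 0.0174, and -2.90 without the middle libraries), a call lost without SNT 2 or SNT 4 at an edgeR adjusted p of up to 0.0509. The Kv4 gene Kcnd3 fell by 2.22 (SE 0.428, edgeR adjusted p = 0.0117) and Kcnd1 by 0.97 (SE 0.246, edgeR adjusted p = 0.0201), the latter with overlapping groups and a call lost without sham 2 or 3 or SNT 2 or 3 at an edgeR adjusted p of up to 0.0606. Without the middle libraries Kcnd3 stood at -3.0 and Kcnd1 at -1.31. Kcnj3 fell by 1.11 (edgeR adjusted p = 0.0376, and -1.60 without the middle libraries) with overlapping groups, a call lost without any 1 of sham 1, 2 or 3 or SNT 2, 3 or 4 at an edgeR adjusted p of up to 0.097. The Kv3 genes Kcnc1 and Kcnc2 fell by 2.15 and 1.54 on the log2 scale (-3.16 and -2.08 without the middle libraries), with the Kcnc1 call lost without SNT 4 (edgeR adjusted p = 0.0501).

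Kcnmb4, the neuronal BK beta subunit gene, was the only member called higher, at 15.3, 16.5, 15.2 and 24.9 CPM after sham and 32.5, 37.2, 37.3 and 39.5 CPM after SNT, without overlap (1.02, SE 0.168, edgeR adjusted p = 0.0106, and 1.29 without the middle libraries), and it stood at 0.03 and 0.06 in the 2 mouse strains. With the BK pore gene Kcnma1 listed at 0 in rat, the summed BK level there rests on beta subunit genes. The Kv7 gene Kcnq3 read 27.6, 40.3, 36.8 and 31 CPM after sham and 28.2, 48.4, 36.5 and 42.3 CPM after SNT and did not pass (0.20, edgeR adjusted p = 0.43), whereas Kcnq5 fell by 1.43 (SE 0.3, edgeR adjusted p = 0.0131). Without the middle libraries Kcnq3 stood at 0.30 and Kcnq5 at -1.92. Other members that did not pass included the Kir genes Kcnj8, Kcnj11 and Kcnj14 and the K2P genes Kcnk3 and Kcnk10. Without the 2 middle libraries 8 further members passed, of which Kcnn4 (0.83), Kcnk13 (1.09) and Kcnh8 (0.42) were higher.

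**Figure D4:**
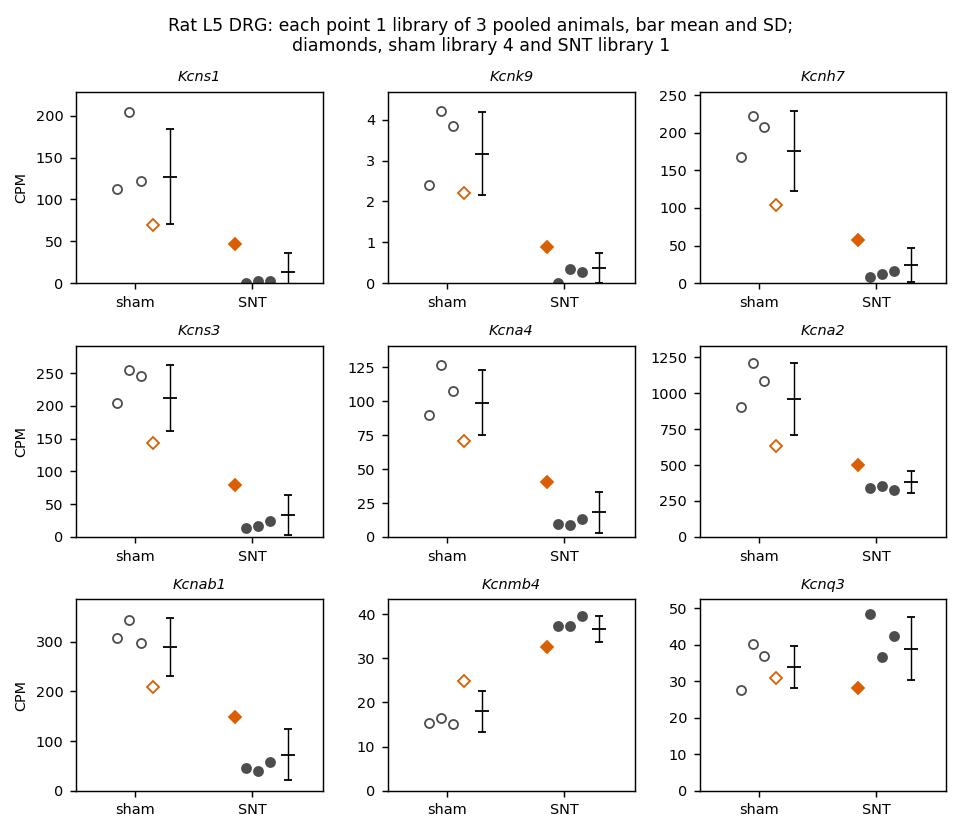
CPM of 9 members in the 4 sham and 4 SNT rat libraries, with mean and SD as a bar beside each group, drawn from 0. Orange diamonds mark sham library 4 and SNT library 1, which lie toward the other group for 8 of the 9 members; Kcnmb4 rose and Kcnq3 overlapped between groups.

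Rat neuronal markers moved as well: of the 4 tested, Scn9a (-1.13) and Scn10a (-2.22) were called lower, with a median change of -1.04, and the 4 markers summed to 5164 to 7391 CPM in sham and 3880 to 6548 CPM in SNT libraries. All 7 tested genes of injured neurons were called higher, and the part of neuron number or state in the channel results was not tested. Kcnj10 and 3 more of the 6 satellite glia markers were listed at 0 in rat.

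**Figure D5:**
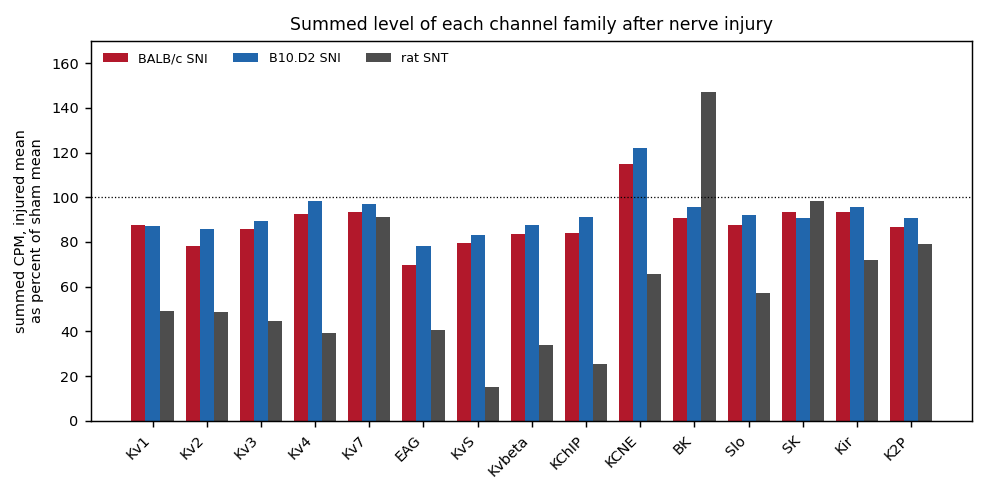
Summed CPM of each channel family after injury, as a percent of the sham mean of the same animals' group, for BALB/c SNI, B10.D2 SNI and rat SNT, with the dotted line at 100. KvS had the lowest share in rat (15.3%, or 6.58% without SNT 1) and EAG in the mouse strains (69.9% and 78%); the rat BK bar rests on beta subunit genes alone, and KCNE sums are low in absolute terms.

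Set side by side, 52 symbols were tested in both species. Of the 12 called in BALB/c and tested in rat, 11 were called in rat (91.7% of the former and 36.7% of the 30 rat calls tested in mouse), and of the 8 called in B10.D2, 7 were. Over the 8007 symbols tested in both species, 33.0% were called in rat, as were 59.2% of the 1068 called in BALB/c and 66.5% of those called in B10.D2. Among these 11 were Kcna2, Kcnab2, Kcnh5, Kcnh7, Kcnip3, Kcnj3, Kcnk18, Kcns1, Kcns3 and Kcnv1, all lower in both. The rat fall was the larger for all 11. These 11 had to pass in rat, where simulated 1.5-fold changes were called in 8% of cases, against 75% in BALB/c. Larger rat falls therefore follow in part from this choice and are no separate result. Kcnj11 was the exception, at -0.35 in rat (edgeR adjusted p = 0.25). A further 19 members were called in rat and in neither mouse strain, a difference that was not tested, among them Kcna4, Kcnab1, Kcnd1, Kcnd3, Kcng3, Kcnk9 and Kcnq5. Across the 52 symbols the Pearson correlation of the log2 fold changes was 0.54 between BALB/c and rat and 0.35 between B10.D2 and rat, as a description over genes. Species, the sexes sampled, injury, ganglion, day, library preparation and pooling all differ between the datasets and cannot be told apart.

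Antisense transcripts were examined because some potassium channel genes are overlapped by RNAs on the other strand. In mouse, 37 features overlapped an exon of a member on the opposite strand, 26 were tested and 2 were called, each in both strains, where 9.69% (BALB/c) and 4.58% (B10.D2) of all features were called. The libraries keep strand, but the strand setting of the counting is not given in the sources used here, and without it the reads of 2 overlapping partners could not be told apart. Gm26673 (chr6:126718684-126741601, plus strand), an annotated antisense gene sharing 2355 exon bases with Kcna6, read 3.69 to 4.24 CPM (median 3.79) in BALB/c sham and 1.45, 1.45, 1.84 and 3.24 CPM in BALB/c SNI libraries. In B10.D2 it read 3.40, 3.65, 3.86, 4.82 and 6 CPM after sham and 1.55, 1.61, 1.79, 2.09 and 2.72 CPM after SNI. Neither pair of groups overlapped, and Gm26673 fell by 1.0 (SE 0.181, edgeR adjusted p = 0.00089) and 1.09 (SE 0.174, edgeR adjusted p = 0.000521). Kcna6 stood at 0.22 (edgeR adjusted p = 0.068) and 0.02 and did not pass. The paper, using DESeq2, lists Kcna6 as significantly higher in BALB/c, which differs from the result here. The assembled LncRNA2252 (chr11:33844702-33991747, minus strand) shares 3038 bases with Kcnmb1 and lies on the strand and within the span of Kcnip1 (chr11:33629339-33993152), which fell in both strains. LncRNA2252 fell from 102 ± 2.93 CPM (SD, n = 6) to 75.7 ± 13.1 CPM (n = 4) in BALB/c (-0.43, SE 0.0811, edgeR adjusted p = 0.00131) and from 87.3 ± 6.73 CPM (n = 5) to 67.1 ± 7.89 CPM (n = 5) in B10.D2 (-0.36, SE 0.0793, edgeR adjusted p = 0.00967). LncRNA662, opposite Kcna2, read at most 0.251 CPM in any library and was too low to test, so a change of it was not detectable at this depth.

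Genes whose products assemble with potassium channels or regulate them, with the transcriptional repressor gene Rest among them, were read from the same fits. Of 23 such genes, 21 were tested in mouse. In BALB/c 8 were called lower and 1 higher, where 4.87% of all features were called lower and 4.82% higher. In B10.D2 7 were called lower and none higher, against 2.48% and 2.10% of all features. The medians were -0.12 and -0.05. Of the Kv1 complex, Cntnap2 (-0.42 and -0.31), Adam22 (-0.23 and -0.15) and Epb41l3 (-0.34 and -0.22) fell in both strains, as did the Kv4 partner Dpp6 (-0.32 and -0.19). The other Kv1 partners tested, Lgi1 (0.02 and -0.02), Dlg1 (0.19 and 0.16), Dlg2 (-0.08 and -0.05), Dlg4 (-0.22 and -0.09) and Cntn2 (-0.12 and -0.04), passed in neither strain. Abcc8, the sulfonylurea receptor gene that pairs with Kcnj11, fell in BALB/c (-0.36, edgeR adjusted p = 0.0214) and stood at -0.26 in B10.D2 (edgeR adjusted p = 0.161). Rest, a repressor of several channel genes, was the gene called higher in BALB/c, at 0.25 (edgeR adjusted p = 0.0141), with 0.17 in B10.D2 (edgeR adjusted p = 0.13). In rat 12 were tested, 7 called lower and none higher, where 15.1% of all features were called lower and 12.3% higher. Dpp6 stood at -1.81 and the Kv2 partner Amigo1 at -1.62, and Rest was listed at 0.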

How the data were processed

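Mouse and rat libraries were grouped by the strain or species, surgery and sex given in their labels. The authors aligned 100-base paired reads with STAR to mm10 or rn6, merged lanes and counted reads per gene and assembled LncRNA with HTSeq. The deposited tables hold these raw counts. Mouse libraries were ribodepleted and rat libraries poly-A selected. Deposited result tables hold the authors' DESeq2 comparisons, of which the symbol column alone was read. Versions and the strand setting of the counting are not given in the sources used here.

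Counts were tested with edgeR 4.0.16 (TMM, filterByExpr, quasi-likelihood F test, two-sided) on group and sex in mouse and on surgery in rat, with Benjamini-Hochberg adjustment over all features and a threshold of 0.05. CPM are counts scaled by library total and TMM factor. The replicate was the animal in mouse and the pool of 3 in rat. DESeq2 1.42.0, RLE scaling, other count filters, no sex term, strains fitted alone, each library left out and, in rat, the title number as a block were the alternatives. Same-numbered rat libraries had r from -0.238 to 0.053 between their deviations, and other pairs from -0.477 to 0.426, so they were not paired. So few pairs cannot settle whether the number marks a block. In simulated counts, 75% of 1.5-fold and 95% of 2-fold changes were called in the BALB/c comparison over 24685 features. The shares were 82% and 98% in B10.D2, and 8% and 58% in rat over 13690. Changes were placed only in features with higher mean counts, so these shares do not hold for members with low counts.

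Gene positions and exon lengths came from GENCODE M21 and promoters from RefSeq. The members and gene lists were chosen with earlier results of these data known. Named members were those called in both strains or in rat and 1 strain, the 3 largest changes at 1 CPM or more among those called in a single injury comparison or between sham strains, and the highest per kilobase in each family. Other members named were chosen after their values were seen, and some genes covered by the counts are not reported here. Counting error alone underlies the floor of 3 counts, and rat libraries, being shallower, resolve less.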

Additional observations from a re-analysis of the deposited data

Results flagged for a closer look

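Values of 23 members were examined in 122 groups of 4 to 6 libraries for a library far from the others, and 10 stood apart by Dixon's criterion, where chance flags about 1 group in 20. Rat SNT library 1, one of the 2 that lay between the groups, was the outlying one 6 times, always above the other SNT libraries: Kcns1 at 47.2 CPM (others 0.545 to 2.69), Kcns3 at 79.0 (13.1 to 24.2), Kcnip3 at 66.5 (15 to 21), Kcnh7 at 57.3 (8.71 to 16.5), Kcna4 at 40.5 (8.95 to 13.2) and Kcnk18 at 6.58 (0.817 to 1.39). In mouse, BALB/c sham library 55 was low for Kcnip3 at 97 CPM (others 109 to 112) and for Kcnmb1 at 24.2 (28.7 to 31.0). BALB/c sham library 50 was low for Kcnk9 at 0.536 CPM (others 0.771 to 0.865), and BALB/c SNI library 65 for Kcnv1 at 47.8 CPM (others 50.7 to 51). The cause was not tested.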

How the results depend on the processing

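The BALB/c count of 20 members called stayed between 18 and 24 and the B10.D2 count of 13 between 10 and 15 under every alternative run, including each library left out (18 to 23 and 10 to 15). The sham strain count of 24 stayed between 21 and 25, and the interaction and sex counts remained 0. The rat count of 31 was 33 with DESeq2, 27 with at least 10 counts in every library and 39 without the 2 middle libraries. It ranged from 17 to 36 when single libraries were left out. The lowest counts were 17 without SNT 2, 18 without sham 3 or SNT 4 and 19 without sham 2 or SNT 3. Those fits hold fewer samples, and the cause was not tested further. Shares of all features are not given beside these counts, which are not read as particular to the members. With the title number as a replicate block, 23 rat members were called, 22 of them among the 31, against 17.4% of all features. The meaning of these numbers is not stated in the labels, so the lower count is given without a reading. The antisense calls, 4 over both strains, were 4 with DESeq2 and 4 to 5 with single libraries left out. Over the 4 comparisons with calls, none of the 88 calls of members changed sign where an alternative gave a value. For 10 of them an alternative gave none: at least 10 counts in every library left Kcnk16, Kcnh4, Kcne3 and, in rat, Kcng3, Kcnip2, Kcnj4 and Kcnk9 untested, and DESeq2 gave no adjusted p for Kcnh4 in BALB/c or for Kcnf1 and Kcnv1 in rat. In mouse, no paired analysis was possible because the labels give no shared replicate numbers across groups. Depth limits Kcnk16 and Kcnh4 in mouse and 9 detected but untested members in rat.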
